A study of Mus musculus with 31 samples.

Results

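The miR-26 family of mouse hippocampus was described through its 5 rows in the deposited count tables, mmu-miR-26a-5p, mmu-miR-26b-5p, mmu-miR-26b-3p, mmu-miR-26a-2-3p and mmu-miR-26a-1-3p (written below without mmu, for mouse). Every row named for an arm of miR-26a or miR-26b was taken, 5 of the 1966 mature microRNAs in the tables, by name and not by level. The members were chosen with earlier results of these data known. Small RNA of the right hippocampus of C57Bl/6 J mice was sequenced in 31 libraries, each labelled as a biological replicate. Whether each came from its own animal is not stated, so p-values measure the spread between these libraries. The mice were 5-HTT knockouts (KO), which lack the serotonin transporter, or wild types (WT). They had exercise, corticosterone (the main glucocorticoid of rodents) or water, and the design gives 4 weeks for exercise and corticosterone. The 6 groups were 5 libraries of KO-exercise, 2 of KO-corticosterone, 6 of KO-water, 5 of WT-exercise, 6 of WT-corticosterone and 7 of WT-water. How the knockout allele was made, the dose and route of corticosterone, the kind of exercise and the age of the mice are not stated in these sources.

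A microRNA is cut from a hairpin whose 5p and 3p arms form a duplex. One arm, the guide, is loaded into an Argonaute protein and pairs with messenger RNAs through its seed, and the other is mostly lost. In vertebrates the miR-26 hairpins sit in introns of the Ctdsp genes, which encode phosphatases that act on RNA polymerase and work with REST, the repressor that keeps neuronal genes silent outside neurons. In zebrafish miR-26b was found to repress its own host, ctdsp2, as neurons form.

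The mature sequences below, from RefSeq on GRCm38.p6 and written 5′ to 3′ with the seed (bases 2 to 8) in capitals, show which arms can share targets.
miR-26a-5p: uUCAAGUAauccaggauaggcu
miR-26b-5p: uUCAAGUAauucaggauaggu
miR-26b-3p: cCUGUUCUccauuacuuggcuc
miR-26a-2-3p: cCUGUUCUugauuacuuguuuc
miR-26a-1-3p: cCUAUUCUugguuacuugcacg
The 5p arms share the seed UCAAGUA, and of the 1675 measured microRNAs with a RefSeq sequence no other had it. Counted from the 5′ end of miR-26a-5p, miR-26b-5p differs by C11U and C21U and ends 1 base earlier, at 21 bases against 22. MiR-26b-3p and miR-26a-2-3p share the seed CUGUUCU with miR-6932-3p and miR-7039-3p, which held 4 and 9 counts over all libraries. The seed CUAUUCU of miR-26a-1-3p was found in no other measured microRNA with a sequence.

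Mir26b lies on chromosome 1 (chr1:74394310-74394394, plus strand, GRCm38.p6) in intron 4 of the 6 introns of Ctdsp1 (transcript Ctdsp1-201). Mir26a-1 lies on chromosome 9 (chr9:119031796-119031885, plus strand) in intron 5 of 7 of Ctdspl (Ctdspl-201), and Mir26a-2 on chromosome 10 (chr10:126995530-126995613, plus strand) in intron 5 of 7 of Ctdsp2 (Ctdsp2-202). Each host gene is on the same strand as its hairpin, and every annotated transcript that spans a hairpin has it in an intron. The hairpins, with both mature arms in capitals, show that miR-26a-5p can come from either of 2 genes while each 3p arm belongs to 1.
Mir26b: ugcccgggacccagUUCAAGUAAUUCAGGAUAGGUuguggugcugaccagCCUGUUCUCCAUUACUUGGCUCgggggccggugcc
Mir26a-1: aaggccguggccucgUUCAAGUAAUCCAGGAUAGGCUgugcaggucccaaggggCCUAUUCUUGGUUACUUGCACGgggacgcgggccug
Mir26a-2: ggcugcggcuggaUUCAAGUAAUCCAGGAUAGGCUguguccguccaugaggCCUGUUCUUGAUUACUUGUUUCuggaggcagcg
The miR-26a-5p row therefore sums 2 loci that its counts cannot separate. The sources used here do not say how reads that match 2 places were counted, so the split between miR-26a-5p and miR-26b-5p is uncertain to that extent. The messenger RNAs of the hosts and of Slc6a4, the transporter gene, are not among the measured features, so neither host expression nor the genotype labels could be checked.

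Total counts ran from 1011285 to 4052174 per library, and WT-water was the deepest group. The sample codes begin with G in 20 libraries and with H in 11, with no stated meaning, and both KO-corticosterone libraries have H. The barcode kit holds fewer barcodes than there were libraries and no label names the pools, so pool and treatment cannot be told apart. KO-water libraries stand apart by table: replicates 3, 4 and 6 are in the deposited table that sets KO-water against WT-water, replicates 1, 2 and 5 are not, and log2 fold changes of the guides that rest on KO-water are given for all 6 and for each set of 3. In bulk tissue fewer cells of a type and less RNA per cell cannot be told apart.

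MiR-26a-5p, the main guide of the family, was one of the most abundant microRNAs in hippocampus. It held 20920 to 128230 counts per library, 1.28% to 4.92% of all counts, with a median rank of 6 among the 1966 rows and ranks between 2 and 12. It made up 97.3% of the 5 arms' counts over all libraries. MiR-26b-5p held 608 to 3760 counts at ranks between 74 and 157, or 2.60% of the family. For each count of miR-26b-5p there were 27.7 to 49.3 counts of miR-26a-5p (median 37.5, n = 31). The 3p arms were rare: 11 to 63 counts for miR-26b-3p, 0 to 40 for miR-26a-2-3p and 1 to 15 for miR-26a-1-3p.

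By group mean, miR-26a-5p was highest in KO-exercise, followed by WT-corticosterone, KO-corticosterone, WT-exercise, KO-water and WT-water. The means were 39639 ± 6955 CPM (counts-per-million scaled by TMM, edgeR's correction for library composition, over all 31 libraries) in KO-exercise, 37589 ± 8171 in WT-corticosterone, 37168 ± 2938 in KO-corticosterone, 35405 ± 11884 in WT-exercise, 26584 ± 6357 in KO-water and 19537 ± 3434 in WT-water (SD). Neighbours among the 4 treated groups differed by less than the SD of either and WT-exercise and KO-water by less than the SD of WT-exercise, whereas KO-water lay above WT-water by more than either SD. MiR-26b-5p had the order KO-corticosterone (1127 ± 195 CPM), KO-exercise (1054 ± 170), WT-corticosterone (935 ± 230), WT-exercise (895 ± 192), KO-water (612 ± 111) and WT-water (585 ± 114). Here too neighbours among the treated groups differed by less than their SD, as did KO-water and WT-water, and the step between WT-exercise and KO-water exceeded both SDs.

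**Figure D1:**
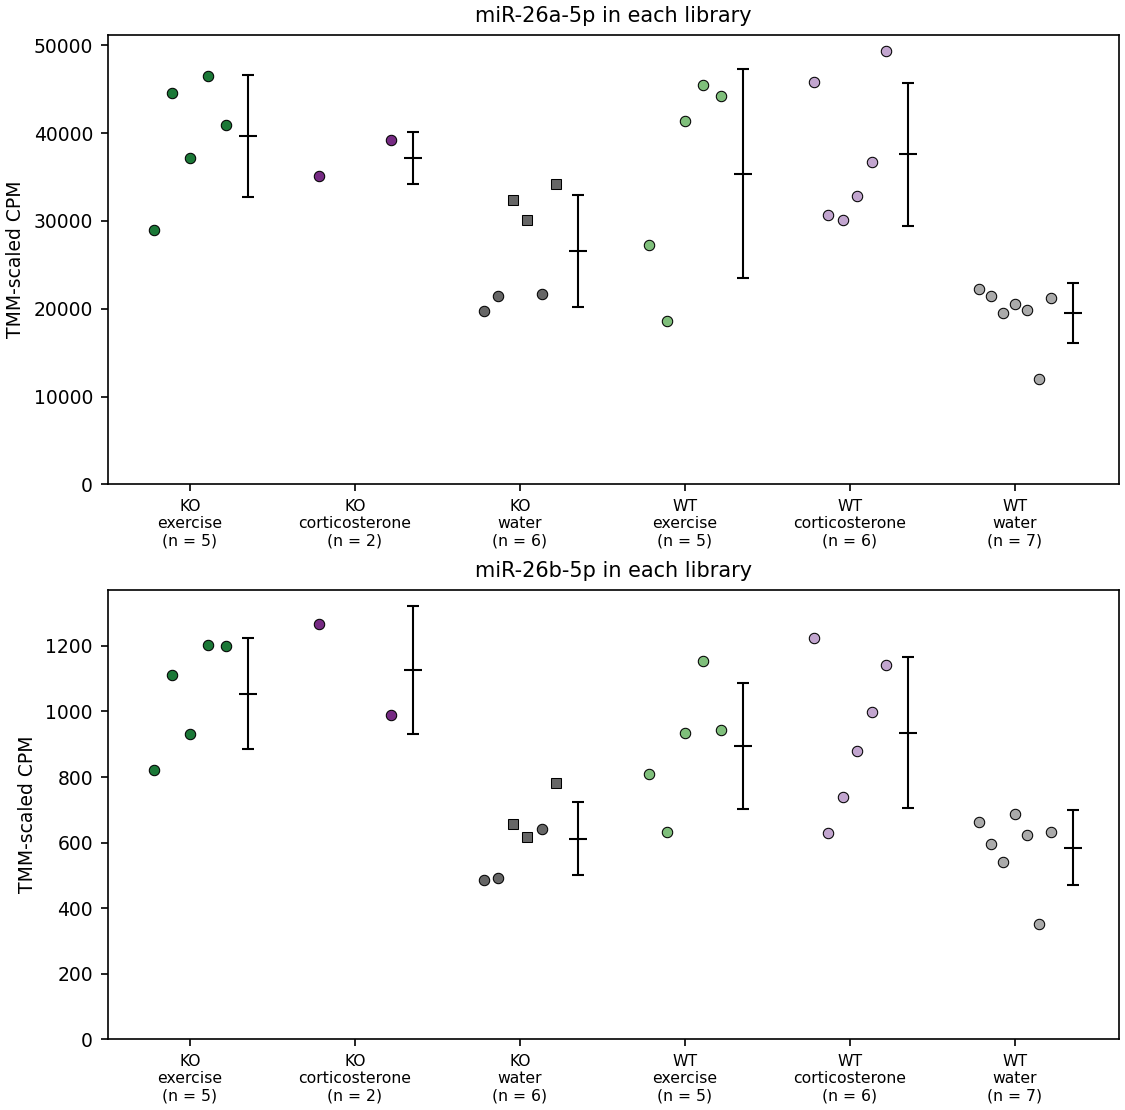
Levels of miR-26a-5p (top) and miR-26b-5p (bottom) in TMM-scaled CPM, 1 point per library, with group mean and SD to the right of the points; KO-water replicates 3, 4 and 6 are squares. Treated groups lie mostly above the water groups, WT-exercise 2 (18638 CPM of miR-26a-5p) lies at the level of WT-water, and WT-water 6 (12058 CPM) is the lowest library.

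The first question was what exercise did in WT mice. Both 5p guides rose: miR-26a-5p 1.81-fold and miR-26b-5p 1.53-fold by the ratio of mean CPM. MiR-26a-5p was at 27209, 18638, 41395, 45535 and 44246 CPM in WT-exercise, against 12058 to 22242 CPM with a median of 20516 in WT-water. Of the exercise libraries 4 of 5 lay above every water library, and WT-exercise 2 lay among them. The log2 fold change was 0.93 ± 0.22 (SE), with an adjusted p of 0.00817 by edgeR's quasi-likelihood test with Benjamini-Hochberg adjustment. MiR-26b-5p was at 809, 632, 935, 1154 and 942 CPM in WT-exercise, against 350 to 689 CPM with a median of 623 in WT-water. Again all but WT-exercise 2 lay above the water libraries, and the log2 fold change was 0.68 ± 0.18 (adjusted p 0.0125, edgeR). Of the 553 microRNAs tested 32.5% were called, 19.9% as higher and 12.7% as lower, or 14.1% and 15.4% without scaling factors, which moves the median of all from 0.04 to -0.07. MiR-26a-5p and miR-26b-5p ranked 88 and 170 by the size of their log2 fold change.

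Without WT-exercise 2 the log2 fold changes were 1.10 for miR-26a-5p and 0.80 for miR-26b-5p, and 48.8% of microRNAs were called. Without WT-exercise 3, 4 or 5 that share was 20.1%, 19.4% and 18.4%, with both guides still called. Among libraries of code letter G, 3 WT-exercise and 5 WT-water, the log2 fold changes were 0.63 ± 0.26 and 0.48 ± 0.20, no longer called (adjusted p 0.247 each, edgeR). Of the 575 microRNAs tested there 1.74% were called. Among those of letter H, 2 and 2 libraries, they were 1.48 ± 0.32 and 1.14 ± 0.29, both called, as were 37.9% of the 554 microRNAs tested.

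Corticosterone in WT mice was tested next. Both guides rose here as well, miR-26a-5p 1.92-fold and miR-26b-5p 1.60-fold by mean CPM. MiR-26a-5p ran from 30134 to 49350 CPM with a median of 34765 in WT-corticosterone, against 12058 to 22242 CPM in WT-water. All 6 treated libraries lay above all 7 water libraries, which held in this direction for 6.95% of the 547 microRNAs tested. Its log2 fold change was 1.00 ± 0.17, with an adjusted p of 0.000399 (edgeR), in a comparison where 41.9% of microRNAs were called, 24.9% as higher and 17% as lower, or 18.5% and 22.5% without scaling factors, where the median of all moves from 0.06 to -0.07. MiR-26b-5p ran from 629 to 1223 CPM with a median of 940 in WT-corticosterone, against 350 to 689 CPM in WT-water, and 5 of 6 treated libraries lay above the water range. WT-corticosterone 2, at 629 CPM, was the exception. The log2 fold change was 0.73 ± 0.18 (adjusted p 0.00446, edgeR). Within code letter G, where 5 treated and 5 water libraries remain, both stayed called at 0.74 ± 0.13 for miR-26a-5p and 0.49 ± 0.17 for miR-26b-5p. There 25.2% of all microRNAs were called, and letter H has only 1 treated library.

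WT-exercise set directly against WT-corticosterone showed no call for either guide. Log2 fold changes of WT-exercise over WT-corticosterone were -0.06 ± 0.24 for miR-26a-5p and -0.03 ± 0.20 for miR-26b-5p (adjusted p 0.999 each, edgeR), and both signs turned when single libraries were left out. Of 521 microRNAs tested edgeR called 0 (0%) and DESeq2 called 1, with 20 at an unadjusted p under 0.05 in edgeR.

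**Figure D2:**
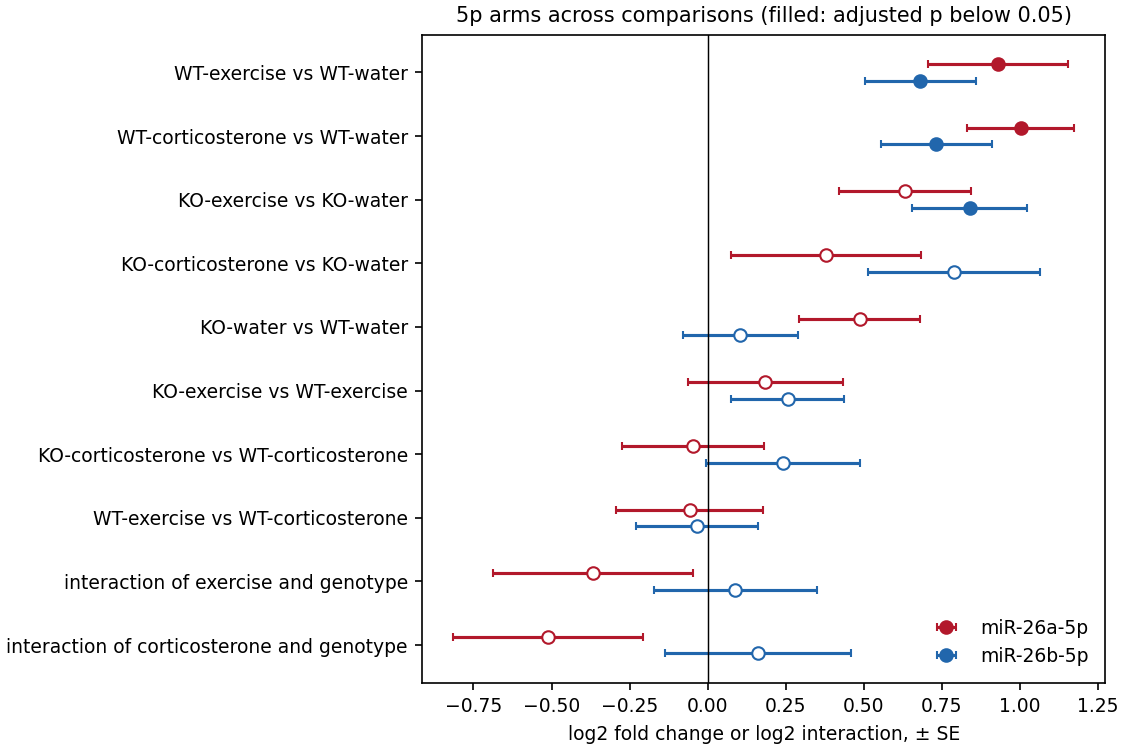
Log2 fold changes and log2 interactions (x axis) of miR-26a-5p and miR-26b-5p in the 8 comparisons of 2 groups and 2 interactions, with SE bars; filled points have an adjusted p below 0.05 (edgeR). Both arms are filled for exercise and corticosterone in WT mice, and miR-26b-5p also for exercise in KO mice.

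In KO mice exercise went with a rise of miR-26b-5p. Its levels were 822, 1112, 933, 1204 and 1200 CPM in KO-exercise, against 486 to 781 CPM with a median of 630 in KO-water. All 5 exercise libraries lay above all 6 water libraries, which held in this direction for 3.82% of the 523 microRNAs tested. The log2 fold change was 0.84 ± 0.18 (adjusted p 0.0164, edgeR), in a comparison where 4.02% of microRNAs were called, 3.06% rose and 0.956% fell. MiR-26a-5p was at 28950, 44548, 37226, 46541 and 40932 CPM in KO-exercise, against 19706 to 34192 CPM with a median of 25872 in KO-water, so that KO-exercise 1 lay within the water range and the other 4 above it. Its log2 fold change of 0.63 ± 0.21 did not pass (adjusted p 0.140, edgeR).

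The set of KO-water libraries changed the call for miR-26a-5p and not that for miR-26b-5p. Against KO-water 3, 4 and 6 the log2 fold changes were 0.24 ± 0.19 for miR-26a-5p (adjusted p 0.333) and 0.56 ± 0.18 for miR-26b-5p (0.0303), with 32.8% of microRNAs called. Against KO-water 1, 2 and 5 they were 0.96 ± 0.19 (0.00671) and 1.00 ± 0.19 (0.00619), with 21.7% called (edgeR). MiR-26b-5p lost its call without KO-exercise 2, 4 or 5 or KO-water 1, at log2 fold changes of 0.73, 0.75, 0.75 and 0.72, without the filter on low counts (0.75, adjusted p 0.131), and within either code letter, at 0.79 ± 0.26 for G and 0.75 ± 0.37 for H. Of all microRNAs tested 0.557% were called within G and 0.177% within H.

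Corticosterone in KO mice was measured in 2 libraries. MiR-26b-5p was at 1265 and 989 CPM in KO-corticosterone, against 486 to 781 CPM in KO-water, and miR-26a-5p at 35090 and 39245 CPM, against 19706 to 34192 CPM. Both treated libraries lay above all 6 water libraries for both guides and for miR-26b-3p, as they did for 10.4% of the 576 microRNAs tested. The log2 fold changes were 0.79 ± 0.27 for miR-26b-5p (adjusted p 0.547) and 0.38 ± 0.30 for miR-26a-5p (0.845), neither called by edgeR, which called 0.521% of microRNAs. MiR-26b-5p was called against either set of 3 KO-water libraries, at 0.62 ± 0.17 for 3, 4 and 6 (adjusted p 0.0412, 19.2% of microRNAs called) and 1.00 ± 0.23 for 1, 2 and 5 (0.0392, 7.08% called). Within code letter H, the one that has treated libraries, the log2 fold changes were 0.33 ± 0.48 for miR-26a-5p and 0.58 ± 0.40 for miR-26b-5p, neither called. MiR-26a-5p was not called against the sets of 3, at 0.11 ± 0.15 and 0.77 ± 0.19 (adjusted p 0.668 and 0.0516, edgeR).

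Between genotypes under water, miR-26a-5p lay at 2 levels within KO-water. It was at 32403, 30100 and 34192 CPM in KO-water 3, 4 and 6 and at 19706, 21461 and 21645 CPM in KO-water 1, 2 and 5, against 12058 to 22242 CPM in WT-water. The first 3 lay above every WT-water library and the other 3 within their range. MiR-26b-5p was at 657, 618 and 781 CPM and at 486, 491 and 641 CPM in the same sets, against 350 to 689 CPM in WT-water, and only KO-water 6 lay above that range. With all 6 KO-water libraries the log2 fold changes were 0.49 ± 0.19 for miR-26a-5p (adjusted p 0.104, edgeR) and 0.11 ± 0.18 for miR-26b-5p (0.667). For miR-26b-5p it was -0.05 without scaling factors. Within code letter G they were 0.35 ± 0.19 and -0.12 ± 0.18, and within H 0.81 ± 0.59 and 0.59 ± 0.54, none called. Of 545 microRNAs tested edgeR called 0 (0%), with 179 at an unadjusted p under 0.05, and DESeq2 called 115, miR-26a-5p among them.

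KO-water 3, 4 and 6 alone against WT-water gave 0.93 ± 0.15 for miR-26a-5p (adjusted p 9.11e-05, edgeR) and 0.44 ± 0.16 for miR-26b-5p (0.0309), both called, as were 60.9% of the 581 microRNAs tested. In 24.4% of these microRNAs, miR-26a-5p included, the 3 KO-water libraries lay above all WT-water libraries. KO-water 1, 2 and 5 alone gave 0.09 ± 0.16 and -0.13 ± 0.18, where edgeR called 0 of 587 microRNAs (24 at an unadjusted p under 0.05). Without KO-water 2, the 5 others gave miR-26a-5p a called change of 0.62 (adjusted p 0.0445, edgeR). The share of microRNAs called was 21.4%, 19.5% and 29.2% without KO-water 1, 2 or 5.

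**Figure D3:**
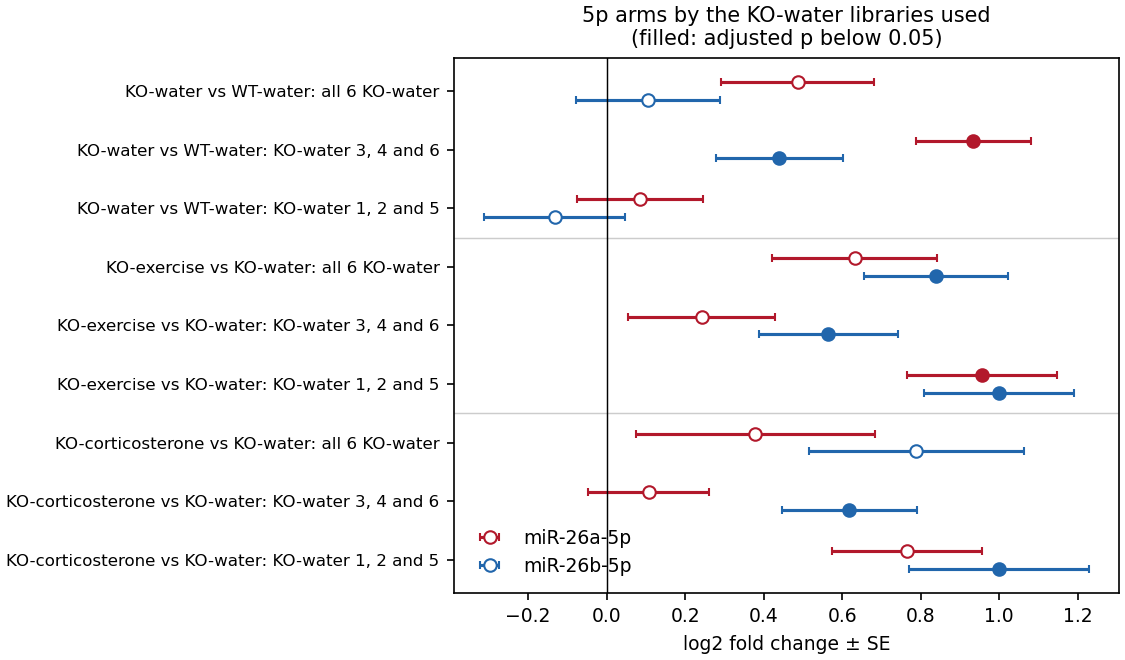
Log2 fold changes (x axis, SE bars) of miR-26a-5p and miR-26b-5p in the 3 comparisons that use KO-water, with all 6 KO-water libraries or either set of 3; filled points have an adjusted p below 0.05 (edgeR). In KO-water against WT-water miR-26a-5p lies at 0.93 with replicates 3, 4 and 6 and at 0.09 with 1, 2 and 5, and miR-26b-5p is filled against both sets in the treated comparisons.

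Neither guide was called between genotypes under exercise or corticosterone. KO-exercise against WT-exercise gave 0.19 ± 0.25 for miR-26a-5p and 0.26 ± 0.18 for miR-26b-5p (adjusted p 0.999 each, edgeR), with 0 (0%) of 517 microRNAs called by edgeR or DESeq2 and 5 at an unadjusted p under 0.05 in edgeR. KO-corticosterone against WT-corticosterone gave -0.05 ± 0.23 and 0.24 ± 0.25 (adjusted p 1.00 each), with 0 (0%) of 552 called by either tool and 9 at an unadjusted p under 0.05 in edgeR. The sign of miR-26a-5p turned to 0.02 without scaling factors.

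Whether a treatment acted differently in the genotypes was tested as an interaction, the KO difference minus the WT difference. For exercise it was -0.37 ± 0.32 for miR-26a-5p and 0.09 ± 0.26 for miR-26b-5p (adjusted p 0.570 and 0.873, edgeR). For corticosterone it was -0.51 ± 0.30 and 0.16 ± 0.30 (0.572 and 0.865). EdgeR called 0 (0%) of 571 and of 630 microRNAs, with 101 and 65 at an unadjusted p under 0.05, and DESeq2 called 4 and 0, no miR-26 arm among them. With KO-water 3, 4 and 6 alone the corticosterone interaction of miR-26a-5p was -0.81 ± 0.28 (adjusted p 0.0319, edgeR), called with 34% of the microRNAs, and that of miR-26b-5p was -0.02 ± 0.30. The exercise interactions were then -0.63 ± 0.32 and -0.06 ± 0.26, neither called (adjusted p 0.123 and 0.868, edgeR), where 42.3% of microRNAs were. With KO-water 1, 2 and 5 alone the corticosterone interactions were -0.18 ± 0.29 for miR-26a-5p and 0.32 ± 0.33 for miR-26b-5p (adjusted p 0.990 each, edgeR). The exercise interactions were 0.06 ± 0.31 and 0.35 ± 0.26 (0.995 each). With this set edgeR called 0 of 621 microRNAs for corticosterone and 0 of 601 for exercise, with 13 and 18 at an unadjusted p under 0.05.

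The balance of the 2 guides within a library does not depend on how libraries are scaled, and was compared by the log2 ratio of their counts with exact two-sided permutation tests, adjusted over 32 tests of 4 ratios in 8 pairs of groups. Relative to miR-26a-5p, miR-26b-5p was lower in WT-corticosterone than in WT-water: 36.8 to 48.8 counts of miR-26a-5p for each of miR-26b-5p in WT-corticosterone, against 29.8 to 36.0 in WT-water, with no overlap. The log2 ratio averaged -5.34 ± 0.16 in WT-corticosterone and -5.07 ± 0.10 in WT-water (SD), a difference of -0.27 (exact permutation p 0.00117, adjusted 0.0373). KO-water was also lower than WT-water, at -5.42 ± 0.20 against -5.07 ± 0.10, a difference of -0.36 (exact permutation p 0.00466, adjusted 0.0466), with KO-water 5 alone inside the WT-water range. It was -0.49 for KO-water 3, 4 and 6 and -0.22 for KO-water 1, 2 and 5, with adjusted p of 0.129 and 0.218 in these smaller exact permutation tests. KO-water 3, 4 and 6, at -5.62 to -5.45, lay below all WT-water libraries, so the unadjusted p of that test could not be lower. Leaving out a library other than WT-water 3 or WT-corticosterone 2 in the first comparison, or than WT-water 3 or KO-water 5 in the second, put the adjusted p above 0.05, at up to 0.0693 and 0.0866.

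In WT-exercise the ratio spread from -5.55 to -4.88 around a mean of -5.26, against -5.17 to -4.90 in WT-water, a difference of -0.19 (exact permutation adjusted p 0.317). The treated KO groups differed from KO-water in the other direction, by 0.20 with exercise and 0.37 with corticosterone, neither past the threshold (adjusted p 0.239 and 0.327). With 2 libraries against 6 this two-sided test cannot give a p below 0.05, so the corticosterone difference could not be called. KO-corticosterone 1 had the highest ratio of all libraries, 27.7 counts of miR-26a-5p for each of miR-26b-5p.

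**Figure D4:**
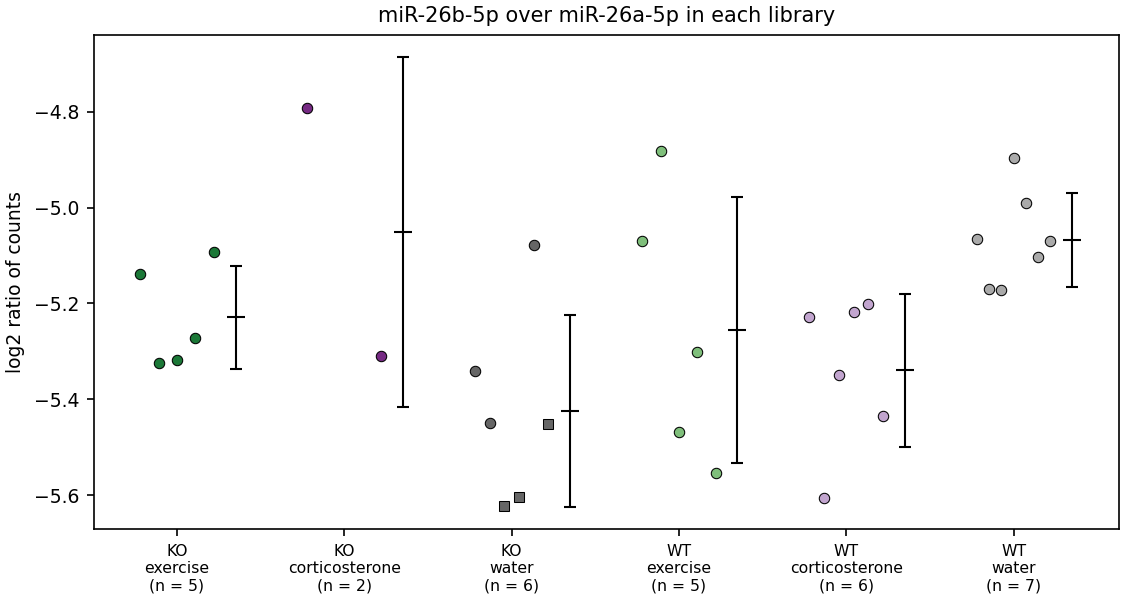
Log2 ratio of miR-26b-5p to miR-26a-5p counts, 1 point per library, with group mean and SD; KO-water replicates 3, 4 and 6 are squares. All 6 WT-corticosterone libraries lie below all 7 WT-water libraries, and the lowest library is KO-water 3.

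No 3p arm was called by edgeR with all libraries and no covariate. MiR-26b-3p, cut from the same hairpin as miR-26b-5p, was at 13.8, 9.79, 8.05, 17.7 and 18.3 CPM in WT-exercise and at 8.37 to 25.8 CPM with a median of 14.6 in WT-corticosterone, against 12.2 to 16.1 CPM in WT-water. The treated libraries lay on both sides of the water range. Log2 fold changes against WT-water were 0.00089 ± 0.21 with exercise and 0.23 ± 0.22 with corticosterone (adjusted p 0.997 and 0.409, edgeR). In KO mice it was at 10.7 to 19.9 CPM in KO-exercise, 21.8 and 18.7 CPM in KO-corticosterone and 8.34 to 17.4 CPM in KO-water, with changes of 0.28 ± 0.26 and 0.65 ± 0.35 over KO-water that did not pass (adjusted p 0.639 and 0.770). Over KO-water 3, 4 and 6 these were 0.29 ± 0.32 and 0.77 ± 0.38, and over KO-water 1, 2 and 5 0.12 ± 0.31 and 0.55 ± 0.35, none called by edgeR.

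The ratio of miR-26b-3p to miR-26b-5p was lower in WT-exercise than in WT-water. There were 51.5 to 116.1 counts of the 5p arm for each of the 3p arm in WT-exercise, against 23.4 to 52.4 in WT-water. The log2 ratio averaged -6.06 ± 0.43 in WT-exercise and -5.32 ± 0.40 in WT-water, a difference of -0.74 (exact permutation p 0.00505, adjusted 0.0466). Only WT-water 3 or WT-exercise 5 could be left out with the adjusted p staying below 0.05, and it reached 0.0970 without others. For WT-corticosterone the difference was -0.57 (adjusted p 0.239, exact permutation) with WT-corticosterone 2, which had 24.4 counts of the 5p arm per 3p count, and -0.82 (adjusted p 0.0323) without it. In KO mice the differences from KO-water were -0.53 with exercise and -0.12 with corticosterone, neither called. KO-corticosterone had too few libraries for this test to call it.

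MiR-26a-2-3p, the 3p arm of the Ctdsp2-hosted hairpin, was low in counts. It had 32 counts in 6 WT-corticosterone libraries, 2.78 CPM before scaling, with an exact 95% Poisson interval of 1.90 to 3.92, against 114 counts in 7 WT-water libraries, 5.75 CPM before scaling (4.75 to 6.91). Such intervals cover counting error only. By library it ran from 1.07 to 7.24 CPM in WT-corticosterone, against 1.54 to 9.25 CPM in WT-water, and the groups overlapped. Its log2 fold change of -0.90 ± 0.46 did not pass (adjusted p 0.124, edgeR). It was -1.59 and called (0.00891) without WT-corticosterone 2, where 52.4% of all microRNAs were called. Without WT-water 5 it was -1.13 and called (0.0499), with 37.9% of all microRNAs called. The arm was also called, at -1.14 ± 0.42 (0.0315), when the main direction in which libraries of a group vary was entered as a covariate. That covariate was taken from these same libraries and removes residual variation by construction, and 51.2% of microRNAs were called with it. Relative to miR-26a-5p, miR-26a-2-3p was lower, with a log2 ratio of -13.87 ± 1.02 in WT-corticosterone and -11.93 ± 0.85 in WT-water, a difference of -1.94 (exact permutation p 0.00583, adjusted 0.0466). That call remained without WT-corticosterone 2 or WT-water 3 and was lost without any other single library (adjusted p up to 0.101).

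In the other groups miR-26a-2-3p had 26 counts in KO-exercise, 15 in KO-corticosterone, 41 in KO-water and 34 in WT-exercise. It was at 0 counts in KO-exercise 2 and KO-water 6, which allows up to 2.97 and 1.29 CPM before scaling (3 counts of the total). KO-water 3, 4 and 6 held 8 counts, 1.44 CPM before scaling (0.623 to 2.85), against 33 counts in KO-water 1, 2 and 5, 4.29 CPM before scaling (2.95 to 6.02). WT-exercise against WT-water gave a log2 fold change of -0.48 ± 0.44 and KO-water against WT-water -0.77 ± 0.49, neither called (adjusted p 0.403 and 0.273, edgeR). Against WT-water it was -1.59 ± 0.73 for KO-water 3, 4 and 6 and -0.30 ± 0.46 for KO-water 1, 2 and 5, also not called (adjusted p 0.0739 and 0.924, edgeR). The arm had too few counts to be tested in 4 comparisons of 2 groups: KO-exercise with KO-water or WT-exercise, and WT-corticosterone with KO-corticosterone or WT-exercise.

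MiR-26a-1-3p, the 3p arm of the Ctdspl-hosted hairpin, summed to 24 counts in KO-exercise, 7 in KO-corticosterone, 28 in KO-water, 23 in WT-exercise, 37 in WT-corticosterone and 69 in WT-water. That is 1.74 to 3.48 CPM before scaling, and all these intervals overlap. Of the 8 comparisons of 2 groups and 2 interactions, each fitted on its own groups, it passed the filter on low counts in the corticosterone interaction alone (-0.30 ± 0.85, adjusted p 0.929, edgeR). In a joint fit of all 6 groups it passed and was not called, at -0.34 ± 0.47 in WT-exercise and -0.01 ± 0.42 in WT-corticosterone against WT-water (adjusted p 0.591 and 0.983, edgeR). Its ratio to miR-26a-5p differed between no pair of groups after adjustment, and KO-corticosterone had too few libraries to pass. The lowest adjusted p was 0.104 (exact permutation) for KO-water against WT-water at a difference of -1.09. Without WT-water 3 that comparison and WT-exercise against WT-water passed, at -1.28 and -1.29 (adjusted p 0.0462 each, exact permutation).

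**Figure D5:**
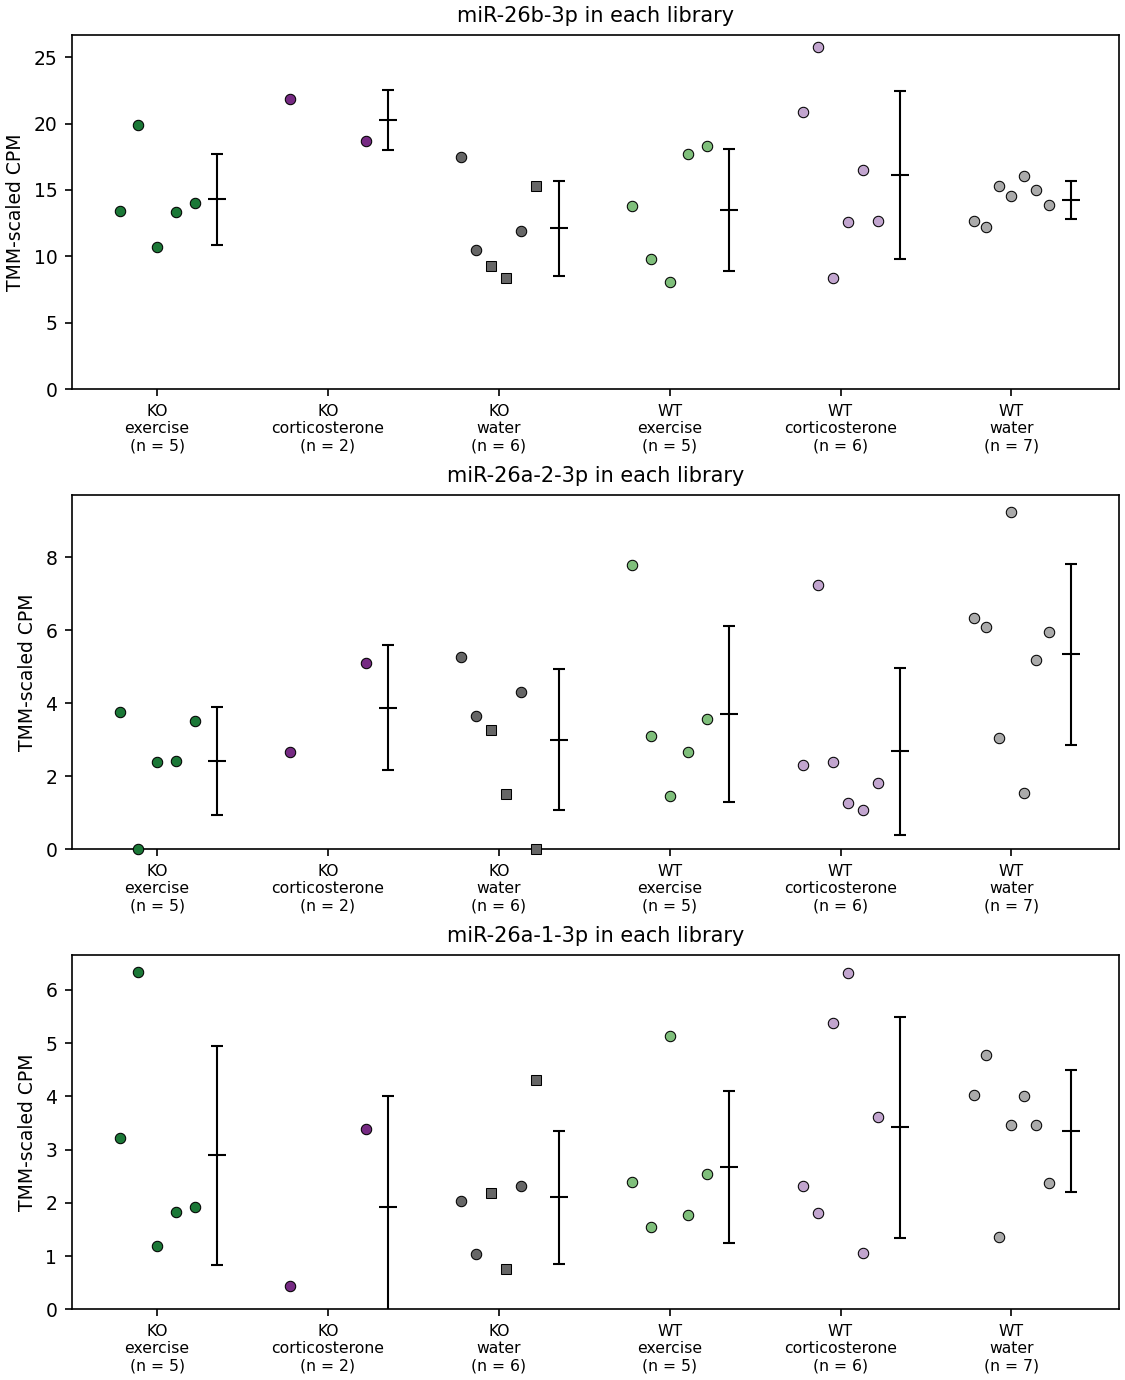
Levels of miR-26b-3p, miR-26a-2-3p and miR-26a-1-3p in TMM-scaled CPM, 1 point per library, with group mean and SD; KO-water replicates 3, 4 and 6 are squares and the lower SD bar of KO-corticosterone in the last panel is cut at 0. MiR-26a-2-3p is at 0 in KO-exercise 2 and KO-water 6, and both KO-corticosterone libraries lie above all KO-water libraries for miR-26b-3p.

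Across the 31 libraries the 2 guides moved together, with a Spearman rho of 0.88 between their CPM and 0.79 between their deviations from group means. MiR-26b-5p and miR-26b-3p had a rho of 0.29 and 0.20 on the same scales. These points share libraries and depth, and the values are descriptions. Among 461 microRNAs with a mean of at least 10 CPM, those most like miR-26a-5p were miR-384-5p (rho 0.96), miR-139-5p (0.95), miR-146b-5p (0.94), miR-129-5p (0.92) and miR-16-5p (0.91). Those most like miR-26b-5p were miR-384-5p (0.88), miR-30c-5p (0.87), miR-146b-5p (0.86), miR-1198-5p (0.84) and miR-139-5p (0.82).

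None of these 7 shares the seed of the miR-26 guides. The 2 that are alike in seed, both with GUAAACA, are shown here with the miR-26a-5p neighbours miR-139-5p and miR-146b-5p (RefSeq, GRCm38.p6, seed in capitals).
miR-384-5p: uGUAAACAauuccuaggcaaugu
miR-30c-5p: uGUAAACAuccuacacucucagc
miR-139-5p: uCUACAGUgcacgugucuccag
miR-146b-5p: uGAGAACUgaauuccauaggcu
Mir384 is on chromosome X, Mir139 on 7 and Mir146b on 19, and miR-30c-5p comes from hairpins on 1 and 4. The 7 were chosen for their likeness to the guides over all libraries, group differences included, so changes in the guides' direction were favoured by the choice and the values are descriptions. With exercise in WT mice the log2 fold change was 0.67 ± 0.20 for miR-384-5p, 0.97 ± 0.20 for miR-139-5p and 0.85 ± 0.19 for miR-146b-5p. With exercise in KO mice, where 4.02% of all microRNAs were called, it was 0.75 ± 0.15 for miR-30c-5p and 0.42 ± 0.17 for miR-384-5p.

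MicroRNAs reported to be bound or repressed by REST, 13 in all, were counted because the host phosphatases act with that factor. The list was chosen with earlier results of these data known, so its counts are descriptions. In WT-exercise against WT-water 6 rose and 1 fell, where 19.9% of all tested rose and 12.7% fell (median log2 fold change 0.15, against 0.04 over all tested). In WT-corticosterone against WT-water 3 rose and none fell, where 24.9% of all rose and 17% fell (0.11 against 0.06). In KO-exercise against KO-water 1 rose and none fell, where 3.06% of all rose and 0.956% fell (0.11 against -0.01). With all libraries no member was called in the other 5 comparisons of 2 groups or in the interactions. The 3 most abundant were not called in any comparison with all libraries. MiR-124-3p, the leading neuronal microRNA, was at 0.04 ± 0.15 with exercise and 0.11 ± 0.15 with corticosterone in WT mice. MiR-9-5p was at 0.04 ± 0.20 and 0.05 ± 0.19, and miR-29b-3p at -0.49 ± 0.24 and -0.48 ± 0.20. MiR-9-5p differed within KO-water, at 17031 to 22604 CPM in replicates 3, 4 and 6 and 41648 to 47164 CPM in 1, 2 and 5. In WT-water it was at 25081 to 53013 CPM. The members that rose with exercise in WT mice, named after their values were seen, were both arms of miR-132 and of miR-212, miR-139-5p and miR-218-5p, and miR-124-5p fell by 0.46 ± 0.14. The 5p and 3p arms of a microRNA are cut from the same hairpin, so these 6 were not independent members.

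Marker microRNAs of several cell types also differed between treated and water libraries, some higher and some lower, and their part in these results was not tested. Their counts stand against 19.9% of all microRNAs that rose and 12.7% that fell in WT-exercise, and 24.9% and 17% in WT-corticosterone. Hippocampal neurons were marked by a neuron-enriched list of 5, whose summed level was 325353 to 380834 CPM in WT-exercise and 316551 to 425871 in WT-corticosterone, against 331042 to 427964 CPM in WT-water. Of its members 1 fell with exercise, and 1 rose and 1 fell with corticosterone, and it shares miR-124-3p and miR-9-5p with the REST list. Of a microglia and immune list of 4, 3 rose in WT-exercise and 4 in WT-corticosterone over WT-water. Its sum was 2426 to 9939 CPM in WT-exercise and 2477 to 8265 in WT-corticosterone, against 2295 to 3345 CPM in WT-water. Most of that sum was miR-150-5p, with 266273 counts over all libraries, against 13148 for miR-223-3p, 7109 for miR-142a-3p and 2939 for miR-142a-5p. An oligodendrocyte list of 3 had 1 member that fell in each, and its sum was 1660 to 6603 CPM and 1886 to 6405 CPM in the same treated groups, against 5752 to 7203 CPM in WT-water. Of 4 vessel microRNAs 2 rose in each, miR-126a-3p and miR-126a-5p, which are cut from the same hairpin. MiR-143-3p was at -0.32 ± 0.25 with exercise and -0.40 ± 0.16 with corticosterone, not called. MiR-145a-5p was at -0.23 ± 0.19 and -0.20 ± 0.16, also not called. The vessel sums were 14304 to 22563 CPM in WT-exercise and 13393 to 21295 in WT-corticosterone, against 12838 to 18486 CPM in WT-water. Of 3 red blood cell microRNAs 1, miR-451a, fell with exercise, and with corticosterone miR-451a fell and miR-486a-5p rose. Their sums were 425 to 1812 CPM in WT-exercise and 483 to 1155 in WT-corticosterone, against 1176 to 2421 CPM in WT-water. Most of that sum was miR-451a, with 66123 counts over all libraries, against 4485 for miR-144-3p and 1587 for miR-486a-5p. With corticosterone their log2 fold changes were -1.24 ± 0.22, -0.07 ± 0.23 and 0.59 ± 0.22 in that order. Of 3 microRNAs of choroid plexus and other ciliated cells 1 rose in each, miR-449a-5p, with 1378 counts over all libraries. The others, not called, were miR-34c-5p (99516 counts) and miR-34b-5p (95048), at -0.03 ± 0.38 and -0.68 ± 0.33 with exercise. With corticosterone they were at 0.84 ± 0.42 and 0.27 ± 0.36. The sums were 1186 to 3242 CPM in WT-exercise and 1243 to 7611 in WT-corticosterone, against 1277 to 4925 CPM in WT-water. No epithelial or muscle microRNA was called.

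In KO mice the microglia and immune sum was 3605 to 6396 CPM in KO-exercise and 4548 and 6567 CPM in KO-corticosterone. It was 7023 to 7887 CPM in KO-water 3, 4 and 6 and 2367 to 3159 CPM in KO-water 1, 2 and 5, a split of the same libraries as that of miR-26a-5p. That sum was mostly miR-150-5p. With all 6 KO-water libraries, log2 fold changes over WT-water were 1.09 ± 0.31 for miR-150-5p and 1.15 ± 0.43 for miR-223-3p. They were 0.64 ± 0.28 for miR-142a-5p and 0.05 ± 0.17 for miR-142a-3p, and none was called by edgeR. The oligodendrocyte sum was 1899 to 4467 CPM in KO-exercise and 1998 and 3403 CPM in KO-corticosterone. It was 1456 to 2285 CPM in KO-water 3, 4 and 6 and 4716 to 6051 CPM in KO-water 1, 2 and 5. Most of that sum was miR-338-3p, with 182659 counts over all libraries, against 60063 for miR-219a-2-3p and 44726 for miR-219a-5p. With all 6 KO-water libraries their log2 fold changes over WT-water were -0.87 ± 0.34, -0.13 ± 0.13 and -1.4 ± 0.62 in that order, none called by edgeR. The vessel sum was 23372 to 26489 CPM in KO-water 3, 4 and 6 and 11284 to 15704 CPM in KO-water 1, 2 and 5. Its largest member was miR-126a-3p, with 473809 counts over all libraries, against 324611 for miR-145a-5p, 249099 for miR-126a-5p and 78661 for miR-143-3p. With all 6 KO-water libraries, log2 fold changes over WT-water were 0.75 ± 0.27 for miR-126a-3p and 0.49 ± 0.26 for miR-126a-5p. They were -0.06 ± 0.19 for miR-145a-5p and -0.23 ± 0.19 for miR-143-3p, none called by edgeR. The red blood cell sum, mostly miR-451a, was 380 to 926 CPM in KO-exercise and 564 and 689 CPM in KO-corticosterone. It was 503 to 635 CPM in KO-water 3, 4 and 6 and 1195 to 1627 CPM in KO-water 1, 2 and 5, again without overlap. The neuron-enriched sum overlapped, at 343943 to 386001 CPM in the first set and 361995 to 397648 in the second, as did the choroid plexus, epithelial and muscle sums. How many of all microRNAs part these sets without overlap was not counted. In KO-water 3, 4 and 6 against WT-water, 60.9% of microRNAs were called. The only marker called by edgeR in a KO comparison with all libraries and no covariate was miR-142a-3p, of the microglia and immune list, with exercise, where 4.02% of all were called. Of the 28 markers 27 had counts in every library and the epithelial miR-141-3p was at 0 in 2.

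The leading axis of variation within groups, which took 49.6% of the within-group variance over 461 microRNAs, ran with the guides. It parted the KO-water sets, at 7.53, 12.9 and 11.2 in KO-water 3, 4 and 6 and -10.8, -10.6 and -10.2 in KO-water 1, 2 and 5. Libraries of WT-water lay between -0.77 and 0.75, those of WT-exercise between -12.1 and 11.0. The deviations of miR-26a-5p from its group means had a Spearman rho of 0.82 with that axis and those of miR-26b-5p 0.60. The 3p arms had -0.60 for miR-26a-2-3p, 0.02 for miR-26b-3p and 0.22 for miR-26a-1-3p. The 31 libraries share depth and scaling.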

How the data were processed

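Small RNA libraries were made with an Ion Total RNA-Seq kit, per the labels' protocols. The authors deposited raw counts per mature microRNA in 5 tables, in which 24 of 24 shared columns were identical and 0 columns went unused. The submitters' processing notes name cutadapt 2.3, BWA, Subread, featureCounts, limma 3.54.1 and the builds GRCm38 and mm10, and whether strand was used and how reads with several matches were counted are not given in the sources used here. Of 1966 microRNAs 391 had no count. The deposited table of KO-water and WT-water holds 3 KO-water libraries and 1 KO-exercise library, and here all 6 KO-water libraries were used by their labels. Between libraries of a group, chi-square divided by its degrees of freedom was at least 16.1, so none was treated as a duplicate.

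Counts were tested with edgeR 4.0.16 in R 4.3.3 (filterByExpr, TMM, robust glmQLFit, quasi-likelihood F test) in each pair of groups, with Benjamini-Hochberg adjustment over all microRNAs tested and a threshold of 0.05. The interactions were fitted over their 4 groups. The script was tested on simulated counts. Alternatives used DESeq2 1.42.0, other scaling, no filter, a joint fit of 6 groups, the code letter, the replicate block, an axis of within-group variation and each library left out. Log2 ratios of counts (pseudocount 0.5) were compared with exact two-sided permutation tests. Poisson intervals (95%) and the floor of 3 counts cover counting error only.

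All miR-26 rows are named, with the 5 microRNAs most like each guide by Spearman rho over 31 libraries and the 3 most abundant of the REST list. The members and lists were chosen with earlier results of these data known.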

Additional observations from a re-analysis of the deposited data

Results flagged for a closer look

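Of 45 sets of values of 1 measure in 1 group, 4 held a library far from the others, where chance gives about 1 in 20. WT-water 6 had 12058 CPM of miR-26a-5p, against 19470 to 22240 CPM in the other WT-water libraries. WT-corticosterone 2 had 7.24 CPM of miR-26a-2-3p, against 1.07 to 2.39 CPM in the others of its group. The same library had a log2 ratio of miR-26b-3p to miR-26b-5p of -4.60, against -6.47 to -5.85 in the others. WT-exercise 3 had 5.13 CPM of miR-26a-1-3p, against 1.55 to 2.54 CPM in the others.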

How the results depend on the processing

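The rise of both guides with corticosterone in WT mice kept its direction and its call under every alternative run. Same-numbered libraries had correlations of their deviations between -0.67 and 0.71, so the numbers were not taken to pair them. With the replicate block the log2 fold changes in WT-exercise against WT-water were 0.79 for miR-26a-5p and 0.59 for miR-26b-5p and that of miR-26b-5p in KO-exercise against KO-water was 0.88, none of them called, with 6.85% and 1.35% of microRNAs called and 4.00% in KO-corticosterone against KO-water. The block turned the sign of miR-26b-5p in WT-exercise against WT-corticosterone (0.04), of miR-26a-2-3p in KO-corticosterone against KO-water (-0.30) and of miR-26b-3p in KO-corticosterone against WT-corticosterone (-0.25) and WT-exercise against WT-water (-0.01). It uses fewer libraries, and the cause of other changes was not tested.

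Within code letter G, with fewer libraries, WT-exercise against WT-water gave 0.63 for miR-26a-5p, 0.48 for miR-26b-5p and -0.31 for miR-26b-3p with 1.74% of microRNAs called, WT-corticosterone against WT-water had 25.2% called, KO-exercise against KO-water gave 0.79 for miR-26b-5p with 0.557% called, and KO-water against WT-water gave -0.12 for miR-26b-5p. Within letter H, KO-exercise against KO-water gave 0.75 for miR-26b-5p with 0.177% called, KO-corticosterone against KO-water had 0% called, and KO-exercise against WT-exercise gave -0.34 for miR-26b-3p. The letter as a covariate gave -0.03 for miR-26b-5p in KO-corticosterone against WT-corticosterone and -0.09 for miR-26b-3p in WT-exercise against WT-water.

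Leaving out scaling factors moved the median of all microRNAs from -0.08 to -0.22 in KO-water against WT-water, -0.12 to 0.03 in KO-corticosterone against KO-water, -0.05 to 0.16 for the exercise and 0.03 to 0.22 for the corticosterone interaction. Without them miR-26b-5p was at -0.05 in KO-water against WT-water, miR-26a-5p at 0.02 in KO-corticosterone against WT-corticosterone and miR-26b-3p at -0.11 in WT-exercise against WT-water. MiR-26b-3p was there also at -0.01 with DESeq2 size factors, -0.06 without a filter and -0.04 in the joint fit. Without a filter miR-26b-5p in KO-exercise against KO-water was 0.75 and not called, with 0.783% of microRNAs called, and KO-water against WT-water had 1.58%. DESeq2 called miR-26a-5p in KO-water against WT-water (0.52) among 21.1%, and 7.27% in KO-exercise and 1.22% in KO-corticosterone against KO-water, 0.192% in WT-exercise against WT-corticosterone and 0.701% for the exercise interaction. DESeq2 size factors called 4.77% in KO-water against WT-water. The joint fit called 6.38% in KO-exercise and 1.28% in KO-corticosterone against KO-water, 11.0% in KO-water against WT-water and 0.159% in WT-exercise against WT-corticosterone.

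The axis covariate removes residual variation by construction. With it, called microRNAs made up 50.6% in WT-exercise and 51.2% in WT-corticosterone against WT-water. The share was 5.03% in KO-corticosterone and 23.3% in KO-exercise against KO-water, and 46.8% in KO-water against WT-water. It was 0.192% in WT-exercise against WT-corticosterone, 28.4% for the exercise and 16.8% for the corticosterone interaction. MiR-26a-5p was then called at 0.65 in KO-exercise against KO-water and 0.44 in KO-water against WT-water, miR-26b-5p at 0.82 in KO-corticosterone against KO-water and miR-26a-2-3p at -1.14 in WT-corticosterone against WT-water.

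With KO-water 3, 4 and 6 only, called microRNAs made up 32.8% in KO-exercise and 19.2% in KO-corticosterone against KO-water, 60.9% in KO-water against WT-water, 42.3% for the exercise and 34% for the corticosterone interaction. MiR-26b-5p was called at 0.62 in KO-corticosterone against KO-water and 0.44 in KO-water against WT-water, miR-26a-5p at 0.93 in KO-water against WT-water and -0.81 in the corticosterone interaction, and the interactions of miR-26b-5p were -0.06 for exercise and -0.02 for corticosterone. The log2 ratio of the guides was -0.49 in KO-water against WT-water, that of miR-26b-3p to miR-26b-5p 0.20 in KO-corticosterone against KO-water and that of miR-26a-2-3p to miR-26a-5p 0.61 in KO-exercise against KO-water. With KO-water 1, 2 and 5 only, called microRNAs made up 21.7% in KO-exercise and 7.08% in KO-corticosterone against KO-water. MiR-26a-5p was called at 0.96 with exercise and miR-26b-5p at 1.00 with corticosterone, miR-26b-5p was -0.13 in KO-water against WT-water, miR-26a-2-3p -0.28 in KO-corticosterone against KO-water, and the exercise interaction 0.06 for miR-26a-5p and -0.23 for miR-26a-2-3p. The ratio of the guides was -0.22 in KO-water against WT-water and that of miR-26a-2-3p to miR-26a-5p -1.04 in KO-corticosterone against KO-water.

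Leaving out 1 library at a time gave 18.4% to 48.8% called in WT-exercise against WT-water, 2.42% (without KO-exercise 4) to 5.58% in KO-exercise against KO-water, 0% to 29.2% in KO-water against WT-water, and 0% to 0.17% (without WT-exercise 2) for the exercise interaction. MiR-26b-5p ran from 0.72 to 0.90 in KO-exercise against KO-water, from -0.12 to 0.07 in WT-exercise against WT-corticosterone and from -0.09 to 0.32 in the corticosterone interaction. MiR-26a-5p ran from 0.40 to 0.62 in KO-water against WT-water, -0.14 to 0.04 in KO-corticosterone against WT-corticosterone and -0.15 to 0.10 in WT-exercise against WT-corticosterone. MiR-26b-3p ran from -0.14 to 0.13 in WT-exercise and -0.01 to 0.29 in WT-corticosterone against WT-water and -0.09 to 0.18 in KO-exercise against WT-exercise. MiR-26a-2-3p ran from -1.59 to -0.75 in WT-corticosterone against WT-water, -0.24 to 0.60 in KO-corticosterone against KO-water and -0.04 to 0.68 in the exercise interaction, and miR-26a-1-3p from -2.20 to 0.53 in the corticosterone interaction. Where KO-corticosterone is left with 1 library, that library is assumed to vary like the other groups.

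The log2 ratio of the guides ran from -0.30 to -0.22 in WT-corticosterone and -0.43 to -0.32 in KO-water against WT-water, -0.0481 to 0.12 in KO-exercise against WT-exercise and -0.0086 to 0.16 in WT-exercise against WT-corticosterone. That of miR-26b-3p to miR-26b-5p ran from -0.84 to -0.56 in WT-exercise and -0.82 to -0.43 in WT-corticosterone against WT-water, -0.216 to 0.0571 in KO-corticosterone against KO-water, -0.0054 to 0.37 in KO-corticosterone against WT-corticosterone and -0.29 to 0.085 in WT-exercise against WT-corticosterone. That of miR-26a-1-3p to miR-26a-5p ran from -1.29 to -0.88 in WT-exercise and -1.28 to -0.86 in KO-water against WT-water and -0.33 to 0.16 in WT-exercise against WT-corticosterone. That of miR-26a-2-3p to miR-26a-5p ran from -2.31 to -1.76 in WT-corticosterone against WT-water and -0.48 to 0.58 in KO-corticosterone against KO-water. Depth limits the 3p arms of miR-26a, with a median of 6 counts per library each.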
